A study of Sus scrofa with 2 samples.

Results

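Tight junctions seal the space between neighbouring epithelial cells. Claudins form the strands of the seal, occludin runs in the same strands, and the zonula occludens proteins tie the strands to the actin cytoskeleton from inside the cell. In the epidermis the working seal sits in the upper living layers, and mice without claudin-1 lose water through the skin. The genes described here are CLDN1, CLDN4 and CLDN7, which encode claudins, OCLN, which encodes occludin, and TJP1, which encodes the scaffold protein ZO-1. They were chosen by symbol from a list of 5 genes. The deposited tables carried 31908 genes, and 4 of the 5 symbols were found in them. CLDN7 was not listed under its symbol, and its values were taken through the Ensembl identifier ENSSSCG00000017934, which a names table pairs with CLDN7. It is therefore given beside the others and is left out of the counts over 4 genes.

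The study dissociated dorsal skin of healthy male farm pigs into single cells and made 10x Genomics 3′ libraries, 1 from fresh cells (treatment "none") and 1 from cells frozen in fetal bovine serum with DMSO, stored in liquid nitrogen and thawed (treatment "frozen"). The pigs were young, and no genotype or strain, age in days or number of animals behind each library was given in the sources used here. The submitted protocol text describes freezing and thawing for both libraries, so the fresh library is called fresh from its title and treatment label. Dead cells and doublets were removed by sorting.

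After filtering, the fresh library held 2775 of 4379 barcodes with a median of 11017 UMIs, and the cryopreserved library held 4223 of 4860 barcodes with a median of 7945 UMIs. The libraries shared 6 barcodes. With 1 library per condition no test of a condition is possible, and cells are not replicates. Levels are counts per 1000000 UMIs (CPM), summed over the cells of a class, and values are given for the fresh and then the cryopreserved library. Intervals in parentheses are exact 95% intervals and cover counting error only. As a rule of size, a difference was counted when it was at least 2-fold in both libraries. Fewer cells with a transcript and less transcript per cell are not separated by a summed level, so shares of cells are given where they matter.

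Keratinocyte-like cells numbered 530 and 1057. They fell into 5 clusters, each with 9 of the 9 measured keratinocyte markers raised, and the junction genes were left out of the genes used for clustering. The clusters are called by their leading genes. The basal cluster, 121 and 213 cells, was highest in KRT15 and had 9 of 9 measured basal markers raised. A cluster with the most PTHLH and SOX9 held 105 and 238 cells, and a cluster with the most SERPINB2 held 199 and 379 cells. The dividing cluster was small, with 23 and 72 cells. The differentiated cluster, 82 and 155 cells, was highest in KRT1 and KRT10 and had 10 of 11 measured markers of differentiated keratinocytes raised. Markers were called raised against the median of all skin clusters, and they overlapped between keratinocyte-like clusters. The SERPINB2 cluster had 8 of 9 basal and 9 of 11 differentiation markers raised. The differentiated cluster had 7 of 9 basal markers raised, and the basal cluster 6 of 11 differentiation markers. The PTHLH/SOX9 cluster had 4 of 4 measured markers of outer root sheath or follicle raised, and 8 of 9 basal and 7 of 11 differentiation markers. Its KRT1 stood at 35.1 and 236 CPM and its KRT10 at 321 and 551 CPM. In the basal cluster KRT1 stood at 44.2 and 419 CPM and KRT10 at 354 and 659 CPM.

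In the RefSeq annotation of Sscrofa11.1, the build of the deposited tables, CLDN1 (ENSSSCG00000040904) lies on the minus strand at chr13:127714857-127730628 with 4 exons. CLDN4 (ENSSSCG00000007718) lies on the plus strand at chr3:11039711-11053930, with transcripts of 1 or 2 exons. CLDN7 is annotated on the minus strand at chr12:52612517-52628376. OCLN (ENSSSCG00000021514) lies on the plus strand at chr16:47600175-47652435 with 9 exons. TJP1 (ENSSSCG00000004854) is the longest, on the minus strand at chr1:144930387-145195857, with 27 to 29 exons. The 3′ libraries read the ends of transcripts, so isoforms were not told apart and levels are compared within a gene, not between genes.

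The 250 bases before the annotated gene start are shown for the 4 genes found by symbol, because 3 of them shared a keratinocyte pattern that TJP1 did not have. They are written 5′ to 3′ on the strand of the gene. Capitals mark the E-box CAGGTG read on either strand (CACCTG is the same motif on the opposite strand), which is the motif bound by the SNAI and ZEB repressors.
CLDN1, chr13:127730629-127730878, minus strand: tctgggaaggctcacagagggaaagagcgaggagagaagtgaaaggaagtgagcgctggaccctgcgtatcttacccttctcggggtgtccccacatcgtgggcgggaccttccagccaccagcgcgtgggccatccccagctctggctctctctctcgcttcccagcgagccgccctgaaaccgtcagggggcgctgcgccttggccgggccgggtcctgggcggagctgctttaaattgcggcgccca
CLDN4, chr3:11039461-11039710, plus strand: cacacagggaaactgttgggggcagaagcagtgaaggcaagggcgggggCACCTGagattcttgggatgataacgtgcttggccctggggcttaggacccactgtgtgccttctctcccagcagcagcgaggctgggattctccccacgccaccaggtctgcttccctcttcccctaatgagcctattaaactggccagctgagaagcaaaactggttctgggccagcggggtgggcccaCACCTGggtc
OCLN, chr16:47599925-47600174, plus strand: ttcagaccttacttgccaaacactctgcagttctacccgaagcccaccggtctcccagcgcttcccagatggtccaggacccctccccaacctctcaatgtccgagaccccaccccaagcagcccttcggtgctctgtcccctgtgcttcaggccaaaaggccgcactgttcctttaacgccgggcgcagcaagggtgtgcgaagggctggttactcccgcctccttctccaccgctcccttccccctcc
TJP1, chr1:145195858-145196107, minus strand: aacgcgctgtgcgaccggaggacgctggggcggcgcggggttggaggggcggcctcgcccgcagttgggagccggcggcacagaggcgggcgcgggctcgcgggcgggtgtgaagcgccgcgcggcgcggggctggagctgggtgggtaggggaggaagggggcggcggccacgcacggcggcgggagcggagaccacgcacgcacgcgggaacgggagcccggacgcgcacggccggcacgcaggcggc

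The CLDN4 window held 2 matches to CAGGTG, starting at -201 and -10 from the gene start, and the other 3 windows held none. This motif was found in 19.6% of 19556 windows of the same length before protein-coding genes. The grainyhead motif AACCGGTT (found in 0.0920% of windows) and the AP-1 motif TGANTCA (in 5.27%) were also searched on both strands and were in none of the 4 windows. No matches overlapped. A match is only a match of letters, and the windows rest on the annotated 5′ ends, which for CLDN4 is the start of its most upstream transcript. G and C made up 65.6% of the CLDN1 window, 60.4% of that of CLDN4, 62.4% of that of OCLN and 80.8% of that of TJP1.

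CLDN1, CLDN4 and OCLN were found almost wholly in keratinocyte-like cells, and TJP1 was found across the epithelium, the vessels and the connective tissue. At least 2-fold higher levels in keratinocyte-like than in all other cells were measured for 3 of the 4 genes, where 14.4% of the 14443 genes with at least 50 UMIs were that much higher. CLDN1 reached 609.8 CPM (592 to 627) and 583 CPM (569 to 598) in keratinocyte-like cells, against 4.44 and 7.68 CPM in all other cells. The keratinocyte level of CLDN1 was 137 (114 to 168) and 76.0 (66.0 to 87.9) times the level elsewhere. Over the alternative settings this ratio ran from 81.9 to 217 in the fresh and from 61.1 to 114 in the cryopreserved library, lowest with all barcodes and highest without the 1 cell that held most UMIs of the gene in each class.

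CLDN4 stood at 471 CPM (456 to 486) and 623 CPM (608 to 638) in keratinocyte-like cells and at 3.06 and 6.87 CPM elsewhere, a ratio of 154 (123 to 196) and 90.6 (78.1 to 106). OCLN stood at 64.4 CPM (58.9 to 70.3) and 76.6 CPM (71.5 to 82.1) against 0.937 and 1.34 CPM, a ratio of 68.7 (45.3 to 109) and 57.1 (40.7 to 82.5). Over the same settings the CLDN4 ratio ran from 78.2 to 224 and from 70.8 to 123, and that of OCLN from 41.2 to 90.6 and from 42.1 to 74.2. All 3 ratios as reported were lower in the cryopreserved library. There the other cells held CLDN1 and CLDN4 at higher CPM, 1.73 (1.36 to 2.20) and 2.25 (1.71 to 2.98) times the fresh level. Of the 109 and 200 CLDN1 UMIs in other cells, 63 and 131 lay in the Langerhans or other dendritic-like class. Another 19 of the cryopreserved UMIs lay in 1 T or NK-like cell. In fibroblast-like cells the cryopreserved to fresh ratio was 1.12 (0.625 to 2.02) for CLDN1 and 2.25 (1.47 to 3.51) for CLDN4.

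CLDN7 was sparse. Its 61 and 76 UMIs in keratinocyte-like cells gave 7.89 CPM (6.03 to 10.1) and 7.15 CPM (5.63 to 8.95), and the ratio over all other cells was 4.21 and 4.33. Only 6.23% and 4.54% of keratinocyte-like cells carried a CLDN7 UMI. Fibroblast-like cells had 36 and 34 UMIs, or 2.28 and 2.07 CPM, so the gene was not confined to the epithelium in these counts.

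**Figure D1:**
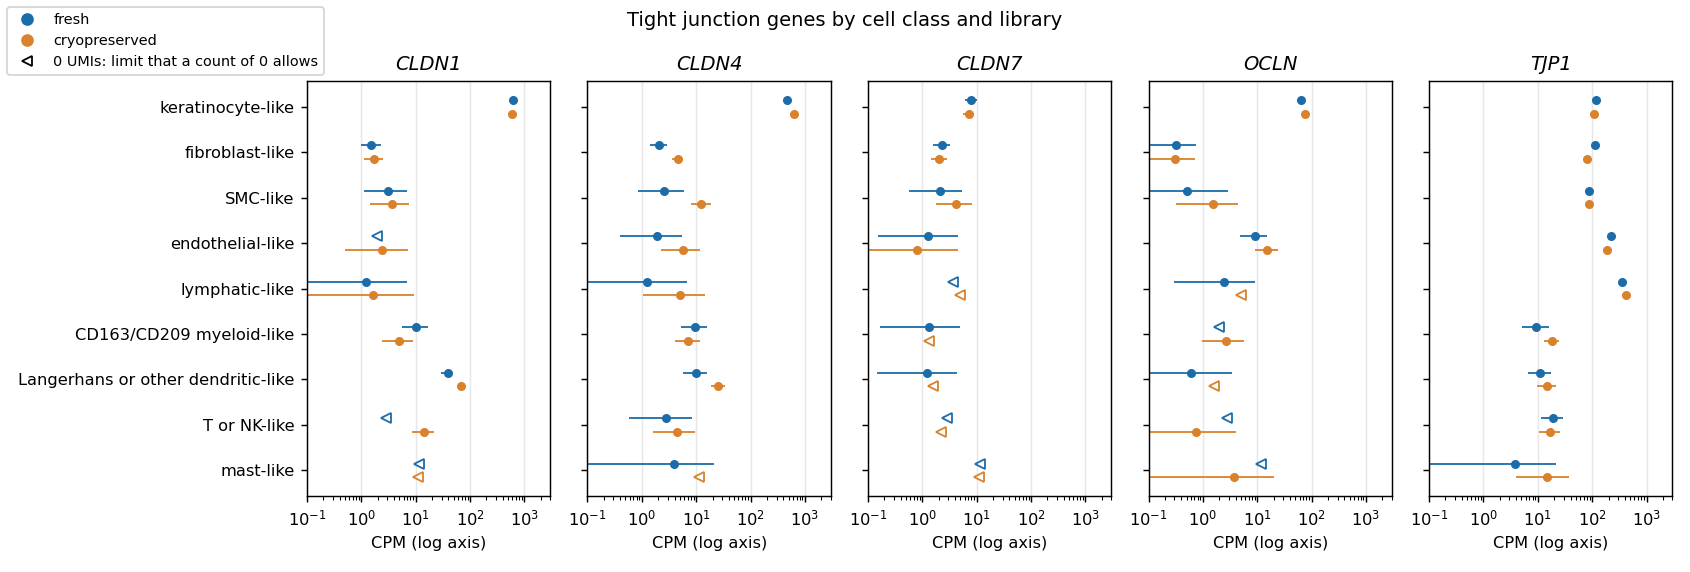
Level of each gene (CPM on a log axis) in 9 cell classes, with the fresh library in blue, the cryopreserved library in orange, exact 95% Poisson intervals as bars and open triangles for classes with 0 UMIs, placed at the limit of 3 counts (bars may run past the left edge). CLDN1, CLDN4 and OCLN are highest in keratinocyte-like cells, while TJP1 is highest in lymphatic-like cells at 360 and 411 CPM.

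Cells were also thinned to 1000 UMIs each, so that shares of cells with a transcript could be set side by side at 1 depth. CLDN1 was then seen in 37.4% (33.2 to 41.7) and 38.0% (35.0 to 41.0) of keratinocyte-like cells, and CLDN4 in 23.1% (19.6 to 27.0) and 25.5% (22.9 to 28.2). OCLN was seen in 4.93% (3.25 to 7.15) and 7.54% (6.01 to 9.31), and TJP1 in 12.3% (9.65 to 15.4) and 10.0% (8.27 to 11.998). Without thinning, CLDN1 was detected in 85.1% and 84.2% of these cells, CLDN4 in 57.9% and 54.6%, OCLN in 39.2% and 38.4%, and TJP1 in 72.3% and 57.1%. T or NK-like cells served as the class that should lack epithelial transcripts. There the thinned share was 0 of 145 and 0.394% of 254 cells for CLDN1 and for CLDN4, and 0 in both libraries for OCLN. In fresh T or NK-like cells a count of 0 allowed, at 3 counts, up to 2.07% of cells with a UMI after thinning, and in cryopreserved cells, for OCLN, 1.18%, which says nothing of cells that express a gene without a UMI. TJP1 was seen in 1.38% and 1.57% of thinned T or NK-like cells. Median depths were 14856.5 and 9693 UMIs in keratinocyte-like cells and 6512 and 4813 UMIs in T or NK-like cells, and 3 and 9 keratinocyte-like cells were too shallow to thin.

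Within the epithelium the genes did not move together. CLDN1 and OCLN were lowest in the basal cluster and higher in every other cluster of both libraries. In the clustering reported, CLDN4 was highest in the SERPINB2 cluster of both libraries and low in the PTHLH/SOX9 cluster. TJP1 varied less than CLDN1, CLDN4 and OCLN, and its highest value was in the PTHLH/SOX9 cluster of both libraries. The order of the SERPINB2 and differentiated clusters depended on how cells were clustered, as given for each gene. Between the differentiated and basal clusters, 2 of the 4 genes were at least 2-fold higher, where 3.05% of 8725 genes were at least 2-fold higher and 8.48% at least 2-fold lower. Between the SERPINB2 and basal clusters it was 3 of the 4, against 4.99% of 9378 genes. That comparison was added after the values were seen, so its count is a description only. CLDN1 left this count with 20 dimensions and without the limit on mitochondrial UMIs, since its cryopreserved ratio was then 1.76 in each case.

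CLDN1 stood at 266 CPM (242 to 291) and 258 CPM (236 to 281) in the basal cluster. It was 425 and 444 CPM in the PTHLH/SOX9 cluster, 637 and 489 CPM in the dividing cluster, 747 and 682 CPM in the differentiated cluster, and 817 (785 to 850) and 808 CPM (779 to 837) in the SERPINB2 cluster. The differentiated cluster held 2.81 (2.52 to 3.15) and 2.65 (2.39 to 2.94) times the basal level, and the SERPINB2 cluster 3.07 (2.78 to 3.403) and 3.14 (2.86 to 3.45) times. The ratio of differentiated to SERPINB2 was 0.915 (0.850 to 0.984) and 0.844 (0.789 to 0.902). That order turned with the clustering. With 20 dimensions the differentiated cluster held 3.74 and 3.39 times the basal level and the SERPINB2 cluster 2.26 and 1.76 times, and without the mitochondrial limit these were 3.9005 and 3.44 against 2.40 and 1.76 times. In the fresh library the interval of the dividing cluster, 551 to 733 CPM, overlapped that of the differentiated cluster, 702 to 795 CPM. In the cryopreserved library the intervals of the dividing cluster, 445 to 537 CPM, and the PTHLH/SOX9 cluster, 416 to 473 CPM, overlapped.

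CLDN4 had a different order. In the SERPINB2 cluster it reached 809 CPM (777 to 841) and 1180.5 CPM (1146 to 1216), which was 3.69 (3.31 to 4.12) and 3.16 (2.93 to 3.42) times the basal level of 219 and 373 CPM. It was lowest in the PTHLH/SOX9 cluster, at 107 CPM (90.3 to 127) and 216 CPM (197 to 237). From the PTHLH/SOX9 to the SERPINB2 cluster the level differed by a factor of 7.53 (6.34 to 8.999) and 5.45 (4.96 to 6.01), while OCLN differed between these clusters by only 1.14 (0.887 to 1.49) and 1.12 (0.942 to 1.33). The differentiated cluster held 324 and 278 CPM of CLDN4, 0.401 (0.361 to 0.443) and 0.236 (0.214 to 0.259) times the SERPINB2 level. This gap did not hold under every clustering. With 20 dimensions CLDN4 was 3.16 and 2.49 times the basal level in the differentiated and 3.08 and 2.61 times in the SERPINB2 cluster, and without the mitochondrial limit 3.07 and 2.27 against 2.97 and 2.56 times. In the dividing cluster it was 702 and 467 CPM, of which 1 cell held 24.4% and 19.8% of the UMIs. The fresh interval of the dividing cluster, 612 to 802 CPM, overlapped that of the SERPINB2 cluster. Ratios to the PTHLH/SOX9 cluster were not recomputed under other clusterings.

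Against the basal cluster, the differentiated cluster had more CLDN4 in the fresh library, 1.48 times (1.29 to 1.70), and less in the cryopreserved library, 0.745 times (0.664 to 0.836). This comparison turned on how cells were assigned, since besides the values just given it was 3.35 and 2.69 times with libraries merged without integration. No direction is therefore given for CLDN4 between these clusters.

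OCLN stood at 13.4 CPM (8.48 to 20.1) and 14.1 CPM (9.39 to 20.4) in basal cells, from 23 and 28 UMIs. Its level was 35.6 and 45.1 CPM in the dividing cluster, 65.4 and 95.4 CPM in the PTHLH/SOX9 cluster, 74.9 and 107 CPM in the SERPINB2 cluster and 110.4 and 75.6 CPM in the differentiated cluster. The differentiated level was 8.26 (5.30 to 13.4) and 5.34 (3.54 to 8.34) times the basal level, and the SERPINB2 level was 5.60 (3.64 to 9.01) and 7.54 (5.14 to 11.5) times. Over the alternative settings the first ratio ran from 4.15 to 11.3 and from 3.07 to 8.27. The second, in the settings that gave it, ran from 2.06 to 10.1 and from 3.52 to 10.7. The libraries did not give 1 order at the top, since the ratio of differentiated to SERPINB2 was 1.47 (1.19 to 1.82) in fresh and 0.709 (0.579 to 0.863) in cryopreserved cells.

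TJP1 ranged from 97.7 to 134 CPM over the 5 fresh clusters and from 78.1 to 144 CPM over the cryopreserved clusters. Its differentiated to basal ratio was 1.23 (0.990 to 1.54) and 1.12 (0.905 to 1.39), so intervals reached from no difference to a difference of 1.54 times. The PTHLH/SOX9 cluster was above the basal cluster in both libraries, 1.37 (1.10 to 1.71) and 1.62 (1.35 to 1.97) times. CLDN7 was too sparse for an order, at 5 to 25 UMIs in the clusters where it was seen and 0 UMIs in fresh dividing cells.

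**Figure D2:**
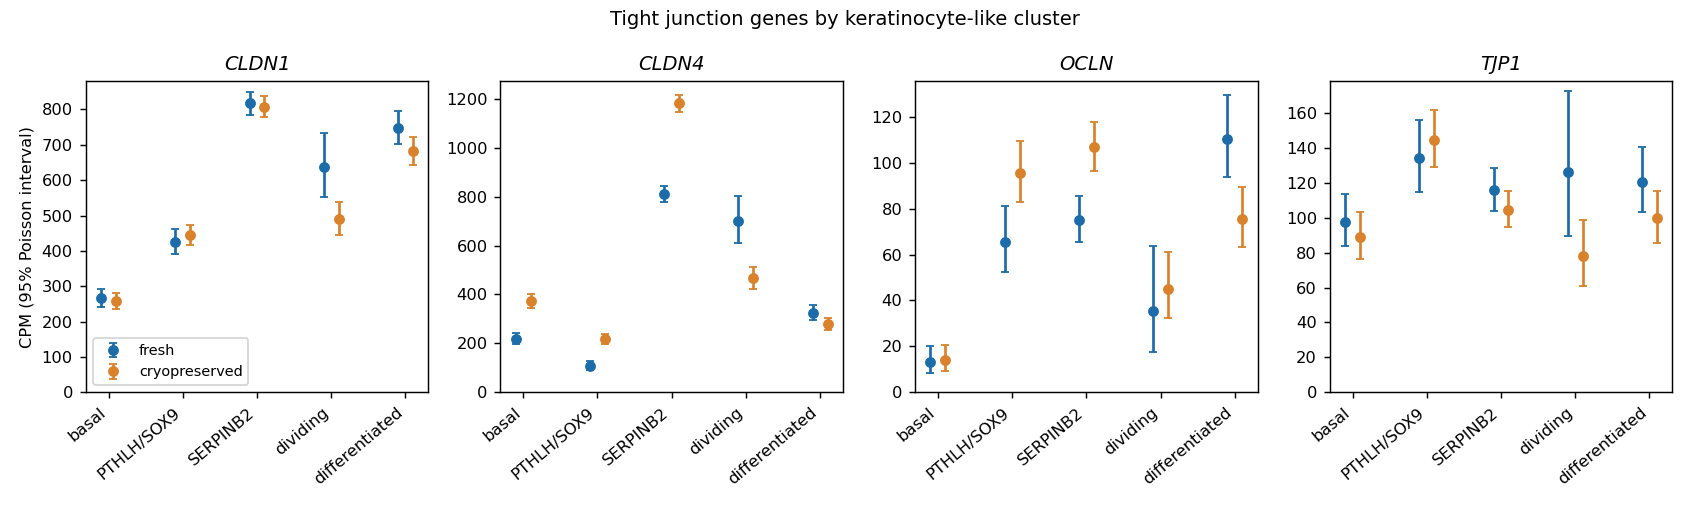
Level (CPM, linear axis from 0) of CLDN1, CLDN4, OCLN and TJP1 in the 5 keratinocyte-like clusters, points for each library and bars for exact 95% Poisson intervals. CLDN4 in this clustering peaks in the SERPINB2 cluster at 809 and 1180.5 CPM, CLDN1 and OCLN are lowest in the basal cluster, and TJP1 stays between 78.1 and 144 CPM.

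Sorting keratinocyte-like cells by their own KRT1 plus KRT10 level, rather than by cluster, gave a graded picture for CLDN1. From under 100 CPM to 10000 CPM and over of these keratins, CLDN1 stood at 350, 526, 782 and 952 CPM in fresh cells and 307, 444, 745 and 926 CPM in cryopreserved cells. OCLN was 33.2, 31.4, 82.7 and 138 CPM in fresh and 41.6, 54.1, 96.9 and 128 CPM in cryopreserved cells, highest in the fourth range of both libraries. CLDN4 was 420, 277, 873 and 588 CPM in fresh and 475, 523, 875 and 711 CPM in cryopreserved cells. It was highest in the third range of both libraries, and only in fresh cells did it fall from the first range to the second. TJP1 stayed between 102 and 131 CPM. Neighbouring ranges differed beyond their intervals for CLDN1 at every step in both libraries. The ranges held 181, 179, 65 and 105 fresh cells and 283, 381, 179 and 214 cryopreserved cells. They are ranges of a score and not cell types, and within 25% above the 3 cuts lay 22, 6 and 5 fresh and 43, 16 and 11 cryopreserved cells.

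**Figure D3:**
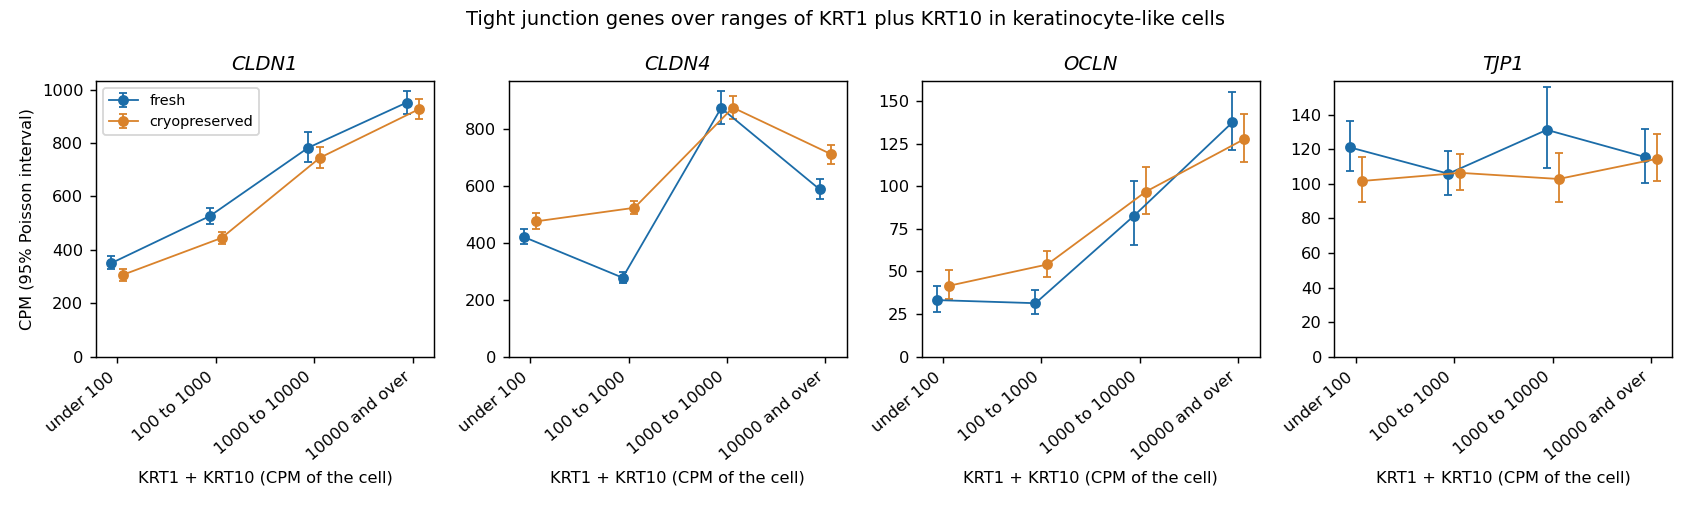
Level (CPM, exact 95% Poisson intervals) of 4 genes in keratinocyte-like cells grouped by the summed CPM of KRT1 and KRT10 in each cell, in fresh (blue) and cryopreserved (orange) cells. CLDN1 climbs over all 4 ranges, to 952 and 926 CPM, CLDN4 is highest in the range from 1000 to 10000 CPM, and TJP1 stays between 102 and 131 CPM.

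CLDN4 was also spread less evenly over cells than CLDN1 and TJP1. The 10% of keratinocyte-like cells with the highest CLDN4 level held 55.1% and 60.8% of its UMIs, whereas for CLDN1 such cells held 35.1% and 31.8% and for TJP1 28.3% and 32.0%. No CLDN4 UMI was found in 42.1% and 45.4% of keratinocyte-like cells, against 14.9% and 15.8% for CLDN1, and the highest single cells reached 8501 and 12048 CPM. The unevenness held within clusters. In the SERPINB2 cluster the top 10% of cells held 41.9% and 49.2% of CLDN4 against 30.6% and 30.4% of CLDN1, and in the differentiated cluster 60.1% and 71.8% against 28.4% and 20.6%. The share held by the top cells also depends on how many UMIs a gene has, and OCLN, with far fewer, reached 50.6% and 47.9%.

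After thinning, CLDN4 was seen in 33.5% (27.0 to 40.6) and 32.7% (28.1 to 37.5) of keratinocyte-like cells with CLDN1 and in 17.0% (13.1 to 21.5) and 21.1% (18.0 to 24.4) of those without. Within the SERPINB2 cluster the shares were 46.0% and 48.4% with CLDN1 against 23.2% and 30.9% without. In the differentiated cluster they were 13.6% and 15.1% with CLDN1 and 18.4% and 15.4% without, with intervals that overlapped.

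Outside the epithelium, TJP1 was highest in lymphatic-like cells, at 360 CPM (319 to 403) and 411 CPM (361 to 465). Endothelial-like cells followed with 220.5 CPM (198 to 245) and 186 CPM (162 to 211). The lymphatic level was 1.63 (1.39 to 1.91) and 2.21 (1.84 to 2.66) times the endothelial level and 3.10 (2.71 to 3.54) and 3.86 (3.35 to 4.43) times the keratinocyte level. TJP1 stood at 112 and 81.0 CPM in fibroblast-like cells and at 87.3 and 88.3 CPM in SMC-like cells. Fibroblast-like and keratinocyte-like cells did not differ beyond counting error in the fresh library, with a ratio of 0.968 (0.893 to 1.05), and did in the cryopreserved library, at 0.761 (0.702 to 0.824). In the 4 immune classes it was 18.8 CPM or lower in both libraries.

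OCLN had a second, low site in endothelial-like cells, with 14 and 19 UMIs in 12 and 17 cells. That was 8.92 CPM (4.88 to 15.0) and 15.4 CPM (9.28 to 24.1), against 0.317 and 0.304 CPM in fibroblast-like cells. Lymphatic-like cells had 2 and 0 OCLN UMIs. OCLN in endothelial-like cells was 0.139 (0.0752 to 0.235) and 0.201 (0.120 to 0.316) times the keratinocyte level. CLDN1 and CLDN4 showed no such site, since endothelial-like cells held 0 and 3 UMIs of CLDN1 and 3 and 7 UMIs of CLDN4. A class at 0 UMIs of CLDN1, fresh endothelial-like cells, had an exact upper bound of 2.35 CPM.

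Among immune cells, CLDN1 was seen in the Langerhans or other dendritic-like class, a feature singled out after its values were seen. The class is 1 cluster with 5 of 6 measured markers raised. It held 107 and 182 cells, and 16 and 22 of them carried 63 and 131 CLDN1 UMIs, or 38.6 CPM (29.7 to 49.4) and 68.7 CPM (57.4 to 81.5). The cell with most held 27.0% and 24.4% of these UMIs. After thinning, CLDN1 was seen in 5.61% (2.09 to 11.8) and 2.75% (0.898 to 6.29) of the cells. In T or NK-like cells there were 0 UMIs in the fresh library, and the 19 UMIs of the cryopreserved library were all in 1 cell. The CLDN1 level in dendritic-like cells was 0.0633 and 0.118 times that in keratinocyte-like cells.

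Keratin transcripts were counted in the same dendritic-like cells. No UMI of KRT5, KRT15, KRT1 or KRT10 was found in 66 and 120 of them. These held CLDN1 at 41.8 CPM (29.9 to 56.9) and 88.1 CPM (72.1 to 107). Only 11 and 17 of these cells carried CLDN1, and 1 cell held 17 of the 40 and 32 of the 105 UMIs. Dendritic-like cells with a UMI of these keratins held CLDN1 at 34.1 and 36.3 CPM. Cells with a UMI of CD207, the Langerhans cell lectin langerin, stood at 39.5 and 87.7 CPM, and cells without one at 38.0 and 48.0 CPM. Shares of cells with CLDN1 were 23.3% and 15.4% with CD207 and 9.38% and 8.79% without, with intervals that overlapped. Outside the cells with the highest doublet scores CLDN1 in the class was 39.6 and 71.6 CPM. CLDN4 in this class was 9.80 and 25.2 CPM, and OCLN had 1 and 0 UMIs.

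The study asked whether freezing changes expression. Between the libraries, 0 of the 4 genes differed by 2-fold or more in keratinocyte-like cells, where 2.94% of 10705 genes did so in either direction. No test with replicates was possible. The cryopreserved to fresh ratio was 0.956 (0.921 to 0.994) for CLDN1, 1.32 (1.27 to 1.38) for CLDN4, 1.19 (1.06 to 1.33) for OCLN, 0.919 (0.841 to 1.004) for TJP1 and 0.906 (0.638 to 1.29) for CLDN7. For scale, the median absolute log2 ratio of all genes between the libraries was 0.20 in these cells, and that of CLDN4 was 0.40.

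Judged by counting error alone, the CLDN4 ratio was not the same in every cluster. It was 1.70 (1.501 to 1.93) in basal, 2.01 (1.66 to 2.45) in PTHLH/SOX9 and 1.46 (1.39 to 1.53) in SERPINB2 cells, but 0.666 (0.564 to 0.787) in dividing and 0.859 (0.754 to 0.978) in differentiated cells. The cryopreserved to fresh ratio of OCLN was 1.46 (1.13 to 1.90) in PTHLH/SOX9 and 1.42 (1.21 to 1.68) in SERPINB2 cells and 0.684 (0.539 to 0.869) in differentiated cells. That of CLDN1 stayed between 0.768 and 1.04 in all 5 clusters. TJP1 was lower in cryopreserved fibroblast-like cells, at a ratio of 0.722 (0.672 to 0.775), and near level in SMC-like cells, at 1.011 (0.813 to 1.26). The libraries also differed in depth, and whether they came from the same animals was not given, so library and freezing cannot be told apart.

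**Figure D4:**
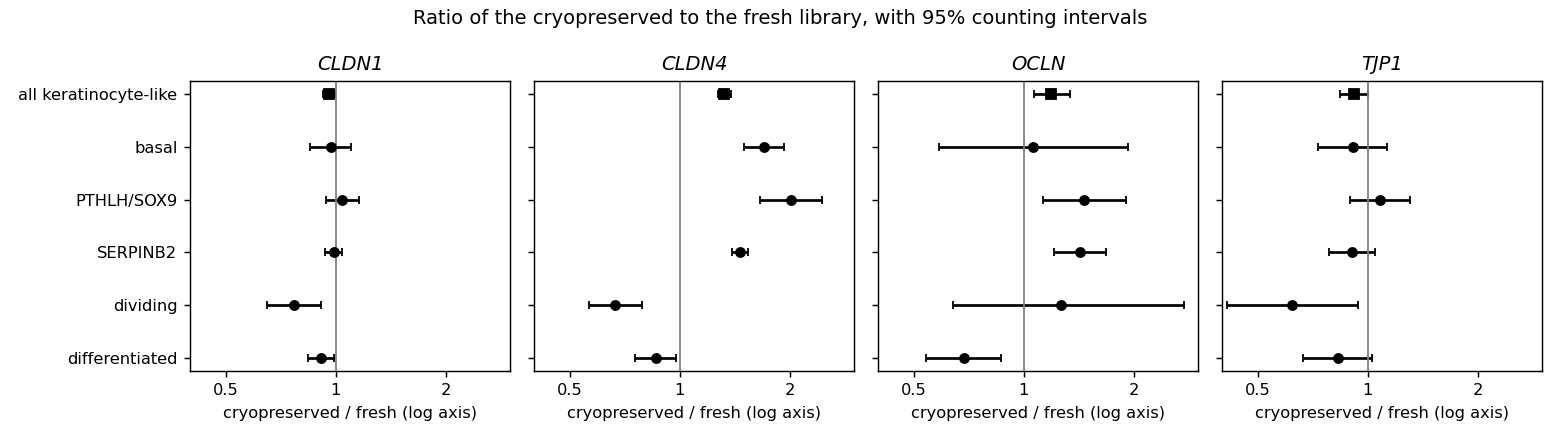
Ratio of the cryopreserved to the fresh level (log axis, bars for exact 95% counting intervals) in all keratinocyte-like cells (squares) and in each cluster (circles), with a grey line at 1. CLDN4 lies to the right of the line in the basal, PTHLH/SOX9 and SERPINB2 clusters, at 1.46 to 2.01, and to its left in the dividing and differentiated clusters.

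The other junction genes were taken from a list of 79 symbols by role, of which 75 were found and 63 had at least 50 UMIs. Of these 63, 37 were at least 2-fold higher in keratinocyte-like cells in both libraries, 13 at least 2-fold lower and 13 neither, where 14.4% of all genes tested were that much higher and 24.7% that much lower. CLDN1, CLDN4, CLDN7 and OCLN are among the 37 higher and TJP1 is among the 13 neither. The list was chosen as genes of epithelial junctions, so its share is not independent of epithelium. Between differentiated and basal clusters, 7 of 44 tested were higher, 2 lower and 35 neither, beside 3.05% higher and 8.48% lower of all genes tested. CLDN1 and OCLN are among these 7. Levels of the other junction genes by keratinocyte-like cluster are given without intervals and for the reported clustering only. They were not recomputed under other clusterings.

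Of the 12 claudin-named genes with enough UMIs, 5 were higher in keratinocyte-like cells, 3 lower and 4 neither. The 5 include CLDN1, CLDN4 and CLDN7. Among all genes tested 14.4% were higher and 24.7% lower, so the number of claudins lower was near that share. CLDN23 had 0.0407 and 0 CPM outside keratinocyte-like cells and was highest in the differentiated cluster, at 21.8 and 19.6 CPM against 1.74 and 6.06 CPM in basal cells. CLDN6 stood at 3.62 and 6.21 CPM in keratinocyte-like cells. CLDN5, the main claudin of endothelium, was at 419 and 435 CPM in endothelial-like cells, 515 and 566 CPM in lymphatic-like cells and 0.259 and 2.45 CPM in keratinocyte-like cells. CLDN11 was highest in lymphatic-like cells, with 154 and 117 CPM against 1.91 and 2.43 CPM in endothelial-like cells. CLDN10 was seen mainly in SMC-like cells, at 26.0 and 14.9 CPM, and CLDN14 in fibroblast-like cells, at 2.91 and 2.19 CPM. CLDN2 and CLDN15 stayed at 1.60 CPM or lower in keratinocyte-like cells. CLDND1, a claudin domain protein that is not a classical claudin, was found in all classes named here, at 92.1 and 77.1 CPM in keratinocyte-like cells and 199 and 144 CPM in lymphatic-like cells.

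The MARVEL proteins, to which occludin belongs, were higher in keratinocyte-like cells in 3 of 3 cases, OCLN included (14.4% of all genes tested). Tricellulin, encoded by MARVELD2, stood at 9.31 and 9.87 CPM there, and MARVELD3 at 11.6 and 12.7 CPM. The angulins LSR and ILDR1, which recruit tricellulin to corners where cells meet, were at 6.21 and 8.37 CPM and at 3.23 and 3.86 CPM. LSR was nearly missing from basal cells, at 0 and 0.505 CPM, and reached 9.35 and 18.6 CPM in the PTHLH/SOX9 cluster. ILDR2 fell under 50 UMIs.

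Immunoglobulin-type adhesion genes split by lineage, with 2 of 5 higher in keratinocyte-like cells and 3 lower (14.4% and 24.7% of all genes tested). CXADR stood at 187 and 176 CPM in keratinocyte-like cells and 2.69 and 3.42 CPM elsewhere. F11R, encoding JAM-A, was at 137 and 147 CPM in keratinocyte-like cells but at 336 and 330 CPM in endothelial-like cells. JAM2 was endothelial, at 364 and 284 CPM, and JAM3 was highest in SMC-like cells, at 228 and 186 CPM.

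Of the scaffold genes, 2 of 10 were higher in keratinocyte-like cells, 3 lower and 5 neither, near the shares of all genes of 14.4% higher and 24.7% lower. TJP1, among the 5, had a ratio of 1.08 (1.002 to 1.17) and 1.34 (1.24 to 1.44). PATJ was at 166 and 155 CPM in keratinocyte-like cells and 10.4 and 8.83 CPM elsewhere. MAGI1 and MPDZ were higher in the vessels, MAGI1 at 2772 and 2529.7 CPM in endothelial-like cells and MPDZ at 232 and 185 CPM in lymphatic-like cells.

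Polarity genes were higher in keratinocyte-like cells in 5 of 7 cases (14.4% of all genes tested). PARD6B stood at 210.4 and 208 CPM against 7.38 and 5.34 CPM elsewhere, PARD3 at 1049 and 944 CPM against 434 and 339 CPM, and PRKCI at 131 and 138 CPM against 31.8 and 24.2 CPM. PRKCZ, at 20.4 and 21.7 CPM in keratinocyte-like cells, was higher in lymphatic-like cells, at 126 and 119 CPM.

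EPCAM, an adhesion protein that binds and stabilises claudins, was higher in keratinocyte-like cells. It was 112 and 117 CPM in keratinocyte-like cells. In the clustering reported it was highest in the SERPINB2 cluster, at 177 and 182 CPM. Differentiated cells had less of it than basal cells, 42.9 and 34.1 CPM against 68.6 and 72.2 CPM. The membrane protease gene ST14 and its inhibitors SPINT1 and SPINT2 were part of a group of 4 genes. All 4 were higher in keratinocyte-like cells, beside 14.4% of all genes tested. ST14, SPINT1 and SPINT2 stood there at 69.9 and 79.4, 74.0 and 98.7, and 248 and 253 CPM.

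Transcription factors tied to junction genes went both ways, with 5 of 10 higher, 3 lower and 2 neither (14.4% higher and 24.7% lower of all genes tested). OVOL1 was at 174 and 182 CPM in keratinocyte-like cells and 0.448 and 0.998 CPM elsewhere, and GRHL2 at 98.3 and 101 CPM against 1.14 and 1.23 CPM. GRHL3, named after its values were seen, stood at 9.89 and 17.7 CPM in basal and 116 and 147 CPM in differentiated cells. KLF4 was level between keratinocyte-like cells, at 548 and 518 CPM, and the rest, at 552 and 625 CPM. ZEB2, which represses epithelial genes, stood at 6.98 and 5.45 CPM in keratinocyte-like cells and 859 and 769 CPM in all other cells together. The other classes differed. Fibroblast-like cells had 854 and 649 CPM, endothelial-like cells 66.9 and 68.1 CPM and lymphatic-like cells 71.7 and 5.01 CPM.

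**Figure D5:**
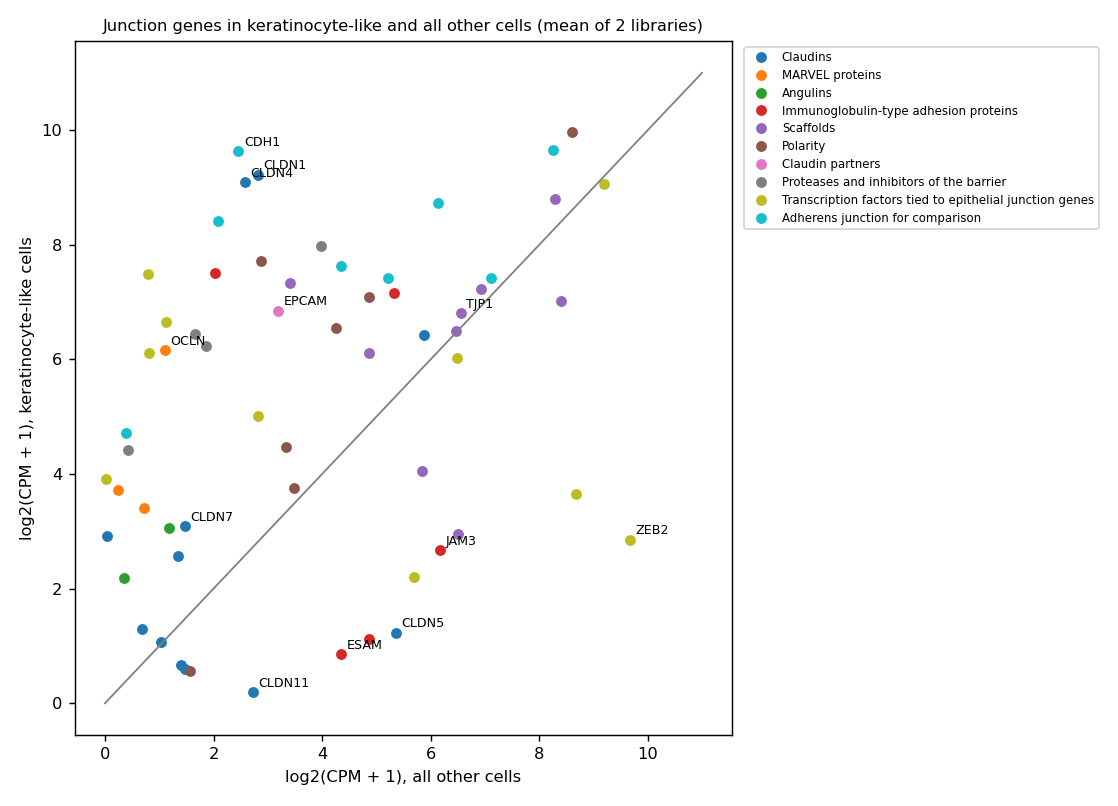
Junction genes of the list, apart from those not reported here, each by its level in all other cells (x) and in keratinocyte-like cells (y), both as log2(CPM + 1) of the mean of 2 libraries, coloured by role, with a grey line where the levels are equal. CLDN1, CLDN4, OCLN and CDH1 lie far above the line, TJP1 lies near it, and CLDN5, CLDN11 and ZEB2 lie below it.

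Adherens junction genes, listed for comparison, were higher in keratinocyte-like cells in 7 of 8 cases (14.4% of all genes tested). CDH1, encoding E-cadherin, stood at 793 and 795 CPM, CTNNA1 at 792 and 817 CPM and CTNND1 at 407 and 437 CPM. CTNNB1 was near level, at 169 and 169.7 CPM against 144 and 130.003 CPM elsewhere. Within the epithelium CDH1 was lower in differentiated cells, at 608 and 582 CPM, than in the SERPINB2 cluster, at 1010.2 and 1018 CPM.

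Genes most like each member were named by the Pearson correlation of log2(CPM + 1) over 42 points, which were 21 clusters of at least 50 cells in each of 2 libraries, among 11692 genes. Points share libraries, so each correlation is a description only. For CLDN1, CLDN4 and OCLN, found almost wholly in keratinocyte-like cells, it largely follows the contrast of these cells with other clusters. That share was not computed, and TJP1 lacked this contrast. For CLDN1 the genes most alike included LAD1 (r = 0.965), SPINT1 (0.961) and ENSSSCG00000037735 (0.949). For CLDN4 they included FXYD3 (0.951) and CLDN1 (0.946). Near OCLN were MACC1 (0.915) and ENSSSCG00000024281 (0.913). TJP1 had other neighbours, WWTR1 (0.954), EMP2 (0.944) and PPFIBP1 (0.9403), and its own correlation with CLDN1 was 0.231. CLDN7 was nearest to MICALL2 (0.827), DDB1 (0.786) and MAP3K6 (0.776).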

How the data were processed

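The authors aligned the reads and counted UMIs per gene and barcode. The submitters' processing notes name Cell Ranger 4.0.0, STAR 2.5.1b and Sscrofa11.1. The values used are the UMI counts deposited by the authors, 1 matrix per library. Barcodes with more than 4500 genes, 30000 UMIs or 10% mitochondrial UMIs (13 genes) were left out, as in the study's filter. Cells were integrated and clustered in Seurat 5.3.0 (30 dimensions, resolution 0.8) without the tight junction list among the variable genes, 14 of which would otherwise have been used. A cluster took the class whose markers had the highest mean log2 fold, with at least 3 markers raised 2-fold, and the 5 keratinocyte-like clusters were named by leading genes. These 2 rules were set after clusters had been seen. Scrublet (scanpy 1.11.5) called 2 and 34 doublets, too few to rely on after the sort and filters, and none were removed. T or NK-like clusters rested on 4 to 8 of 9 markers.

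Symbols came from the files for 16719 genes and from a names table for 782 more. Upstream sequences and positions are from RefSeq on Sscrofa11.1. UMIs were summed per class and library, with exact Poisson, conditional (Clopper-Pearson) and binomial intervals, by scipy. UMIs collapse PCR copies, and intervals cover counting error only. The fold rule was tested on simulated data. Named genes were the 5 genes, claudins with at least 50 UMIs, and per role the 3 highest in keratinocyte-like cells and the 1 with the highest ratio of another class. The genes and lists were chosen with earlier results of these data known. Alternatives included edgeR 4.0.16 and DESeq2 1.42.0 scaling of the summed counts. A few genes that these rules would name are not reported here, but they stay in the counts.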

Additional observations from a re-analysis of the deposited data

Results flagged for a closer look

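CLDN4 went opposite ways in the libraries between the differentiated and basal clusters, at ratios of 1.48 in fresh and 0.745 in cryopreserved cells. The difference between libraries was not tested, since each has 1 sample.

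The cryopreserved to fresh ratio of CLDN4 differed in direction between keratinocyte-like clusters, at 1.70 in basal, 2.01 in PTHLH/SOX9 and 1.46 in SERPINB2 cells against 0.666 in dividing and 0.859 in differentiated cells. OCLN did likewise, at 1.46 in PTHLH/SOX9 and 1.42 in SERPINB2 cells against 0.684 in differentiated cells. These differences were not tested either, and the ratios by cluster were not recomputed under other clusterings. The shares of thinned cells with CLDN4 had intervals that overlapped between the libraries in each cluster.

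The 1604 fresh and 637 cryopreserved barcodes outside the filter entered only the alternative that used all barcodes. CLDN1 stood there at 253 and 263 CPM, CLDN4 at 142 and 284 CPM, OCLN at 27.1 and 28.2 CPM, and TJP1 at 96.2 and 78.5 CPM. In the filtered cells of the same libraries CLDN1 stood at 149 and 175 CPM, CLDN4 at 115 and 185 CPM, OCLN at 16.1 and 23.2 CPM and TJP1 at 109 and 87.5 CPM.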

How the results depend on the processing

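Counts of genes past 2-fold were recomputed under the alternatives that applied to each. So were the background share and the count of genes seen in a larger share of keratinocyte-like than T or NK-like cells. Of all these values, 38 of 38 stayed within 1.5 times the reported ones, a limit under which 2 and 3 of 4 genes count as the same. The 2-fold count between libraries was 0 of 4 genes, also with edgeR TMM and DESeq2 size factors. It was 3 of 4 for keratinocyte-like over other cells and 2 or 3 of 4 for differentiated over basal. The third gene was CLDN4, whose differentiated to basal ratio ran from 1.21 to 3.35 in fresh and from 0.690 to 2.69 in cryopreserved cells. At resolution 0.4 basal and differentiated clusters could not be told apart, so no value was had. Its cryopreserved value passed from 0.745 to above 1 in 6 settings: 1.40 with all barcodes, 2.05 with 50 and 2.49 with 20 dimensions, 2.27 without the mitochondrial limit, 2.69 merged without integration and 1.496 by keratin ranges. Of the single ratios, 58 moved beyond their counting interval. The differentiated to basal ratio of CLDN7 turned from 0.446 to 1.60 with all barcodes and 1.75 with 50 dimensions in fresh cells, and ran from 0.592 to 1.26 in cryopreserved cells. Other ratios of CLDN7, TJP1 and, between libraries, CLDN1 that lay near 1 or rest on few UMIs also crossed it. SERPINB2 over basal CLDN1 in cryopreserved cells fell to 1.76, under 2-fold, with 20 dimensions and without the mitochondrial limit. The cause was not tested. Values for SERPINB2 over basal cells and for CLDN1 in dendritic-like cells were added after seeing the data. SERPINB2 over basal had no value with all barcodes, at resolution 0.4, with 50 dimensions or merged without integration. The background share was 14.4% of genes at 50 UMIs and 14.4% at 200 UMIs. With 1 library per condition no replicate could be left out. No paired analysis was possible because each condition has 1 library. Low UMI numbers limit CLDN7 everywhere and OCLN outside keratinocytes.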

Other observations

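These genes were named after their values were seen. The dendritic-like class carried other genes of the junction list. EPCAM stood there at 108 and 105 CPM, close to 112 and 117 CPM in keratinocyte-like cells, while fibroblast-like cells had 0.380 and 0.364 CPM. SPINT2 stood at 84.5 and 94.9 CPM, but other immune classes carried it too. It was 148 and 144 CPM in mast-like and 57.9 and 59.3 CPM in CD163/CD209 myeloid-like cells. LSR, with 201 UMIs in all filtered cells, stood at 14.7 and 12.6 CPM against 6.21 and 8.37 CPM in keratinocyte-like cells as a whole. The PTHLH/SOX9 cluster had 9.35 and 18.6 CPM of LSR, and no intervals were computed for these genes. CXADR, at 187 and 176 CPM in keratinocyte-like cells, stood at 2.45 and 5.77 CPM in the dendritic-like class.

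In lymphatic-like cells several junction genes stood well above endothelial-like cells besides TJP1 and CLDN11. PARD6G was at 367 and 382 CPM against 2.55 and 2.43 CPM, PRKCZ at 126 and 119 CPM against 5.74 and 0.811 CPM, and CGNL1, encoding paracingulin, at 106 and 142 CPM against 17.2 and 18.7 CPM. Others went the other way, among them JAM2, at 3.71 and 3.34 CPM against 364 and 284 CPM. JAM3 was at 1.24 and 1.67 CPM against 80.3 and 51.9 CPM, and ESAM at 13.6 and 36.7 CPM against 108 and 148 CPM. F11R and MAGI1 were lower in lymphatic-like cells by smaller factors, F11R at 187 and 149 CPM and MAGI1 at 2174 and 1735 CPM.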
